A study of Homo sapiens with 6 samples.

Results

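The genes described here are 37 members of the integrated stress response, the programme that runs through phosphorylation of eIF2 alpha and the transcription factor ATF4. They were taken by name from a gene table of 18358 genes, in which all 37 were found, and were grouped by role into 12 kinases and factors, 9 genes of amino acid synthesis, 7 amino acid transporters and 9 stress effectors. RNA-seq had been made in 6 libraries from ME180, a long-established line of human cervical epidermoid carcinoma, from a metastasis per the labels. In 3 libraries the cells carried a single-guide construct against VPS13C, a bridge-like lipid transfer protein, and are called VPS13C knockout here, and in the other 3 they carried vector. Both groups had received 2 µM of the DNA-crosslinking drug cisplatin for 48 h. Cells without the drug were not analysed here, so each difference below is one between treated populations and not a response to cisplatin. The labels do not say whether the knockout cells were a clone or a pool, or whether replicates came from separate cultures, so the tests weigh differences against a library-to-library spread that may be technical only.

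Cells under amino acid shortage, unfolded protein in the endoplasmic reticulum, heme shortage or viral RNA activate kinases that phosphorylate eIF2 alpha. General translation then slows, while the ATF4 mRNA, which carries short upstream reading frames, is translated more. ATF4 switches on genes for amino acid synthesis and uptake, for further transcription factors such as CHOP (DDIT3) and ATF3, and for effectors that include GADD34 (PPP1R15A), which brings a phosphatase to eIF2 alpha and so closes the loop. Because ATF4 is controlled largely at translation, its mRNA level is only part of its regulation, and RNA levels do not show how much protein was made.

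The libraries held 14774065 to 15799149 counts each, of which the members took 96998 to 103049 in the knockout libraries and 134232 to 138139 in the vector libraries. VPS13C itself had 28.6, 18.6 and 23.7 CPM (counts scaled to library size by TMM) in the knockout libraries and 48.1, 30.1 and 35.0 CPM in the vector libraries. The groups did not overlap, but the log2 fold change of −0.67 (standard error 0.22) did not pass the threshold (edgeR adjusted p = 0.0513; exact two-sided permutation p = 0.1, the smallest that 3 against 3 libraries allow). Its edgeR adjusted p was 0.0482 without knockout replicate 1 and 0.0378 without vector replicate 2, and 0.0906 to 0.144 when any other library was left out. The squamous markers TP63, KRT5, KRT14, KRT6A, KRT17, SFN, PERP, DSP and JUP were all expressed, with summed levels of 22797 to 27580 CPM in the knockout and 14170 to 17936 CPM in the vector libraries. Of these 9 markers 5 rose (55.6%), beside 17.8% of all genes tested. Of 6 fibroblast, 7 leukocyte and 5 endothelial markers measured, 4, 5 and 3 stayed under 1 CPM in every library, PTPRC, CD3E, MS4A1 and PECAM1 among them. The exceptions were COL1A1, DCN, LYZ, CD68, CDH5 and VWF, and these lists summed to 47.1 to 50.3, 41.8 to 46.5 and 21.8 to 24.97 CPM in the knockout libraries and 37.2 to 44.2, 72.0 to 86.1 and 8.06 to 8.49 CPM in the vector libraries. Of these exceptions DCN and VWF rose (log2 fold changes 3.63 and 1.97), and CDH5 and CD68 fell (−3.07 and −0.85). COL1A1 and LYZ did not pass. The part of these marker levels in the results below was not tested. Levels relative to each gene's mean over the 6 libraries also followed gene length to a different degree in each library. The slope of this log2 deviation on each doubling of length was 0.12, −0.11 and 0.05 in knockout replicates 1 to 3. In vector replicates 1 to 3 it was 0.11, −0.11 and −0.06.

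More members were lower than higher in the knockout libraries, and each role group held changes in both directions. Of 36 members tested, 13 fell, 6 rose and 17 did not pass the threshold of an adjusted p under 0.05 (edgeR quasi-likelihood test, adjusted over 13717 genes). Across all genes tested 17.4% fell and 17.8% rose, so the members' share of falls, 36.1%, was above the background and their share of rises, 16.7%, was near it. The members were chosen with earlier results of these data known, so their shares are no independent evidence. The median log2 fold change was −0.35 over the members, beside 0.00 over all genes, and 27 of the 36 members had a negative value. With each library's trend on gene length removed, 20 members fell and 6 rose, but more of all genes passed as well, 23.7% falling and 22.9% rising. The added falls were those of ATF4, CEBPG, PSPH, SLC7A11, SLC38A2, CHAC1 and PPP1R15B. Without knockout replicate 3 or without vector replicate 3, 4 members rose and 11 or 10 fell, and the numbers of genes called were 1551 higher and 1475 lower, or 1582 higher and 1521 lower. Lower RNA in a bulk library can come from fewer cells that express a gene or from less RNA per cell, and these cannot be told apart here.

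The summed level of the members was 6568, 6877 and 6663 CPM in the knockout libraries and 8259.5, 8700.0 and 8524 CPM in the vector libraries, so the groups did not overlap. Most of the gap came from 2 of the 4 role groups. The stress effectors summed to 803, 837 and 799 CPM in the knockout libraries and 1622, 1841 and 1773 CPM in the vector libraries and the transporters to 3411, 3329.8 and 3386 CPM in the knockout libraries and 4034, 3957 and 3945 CPM in the vector libraries. The kinases and factors summed to 1119.8, 1234 and 1146 CPM in the knockout libraries and 1368, 1512 and 1439 CPM in the vector libraries. The genes of amino acid synthesis overlapped between the groups, at 1235, 1476 and 1332 CPM in the knockout libraries and 1236, 1390.2 and 1367 CPM in the vector libraries. GDF15 alone made a large part of the effector gap: without it the effectors summed to 753, 781 and 749.7 CPM in the knockout libraries and 1138, 1299.8 and 1239.8 CPM in the vector libraries, which still did not overlap. Per library, the groups of libraries did not overlap for 23 members, of which 17 were lower and 6 higher in the knockout libraries. Over all genes tested, 24.0% were lower and 24.5% higher without overlap.

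**Figure D1:**
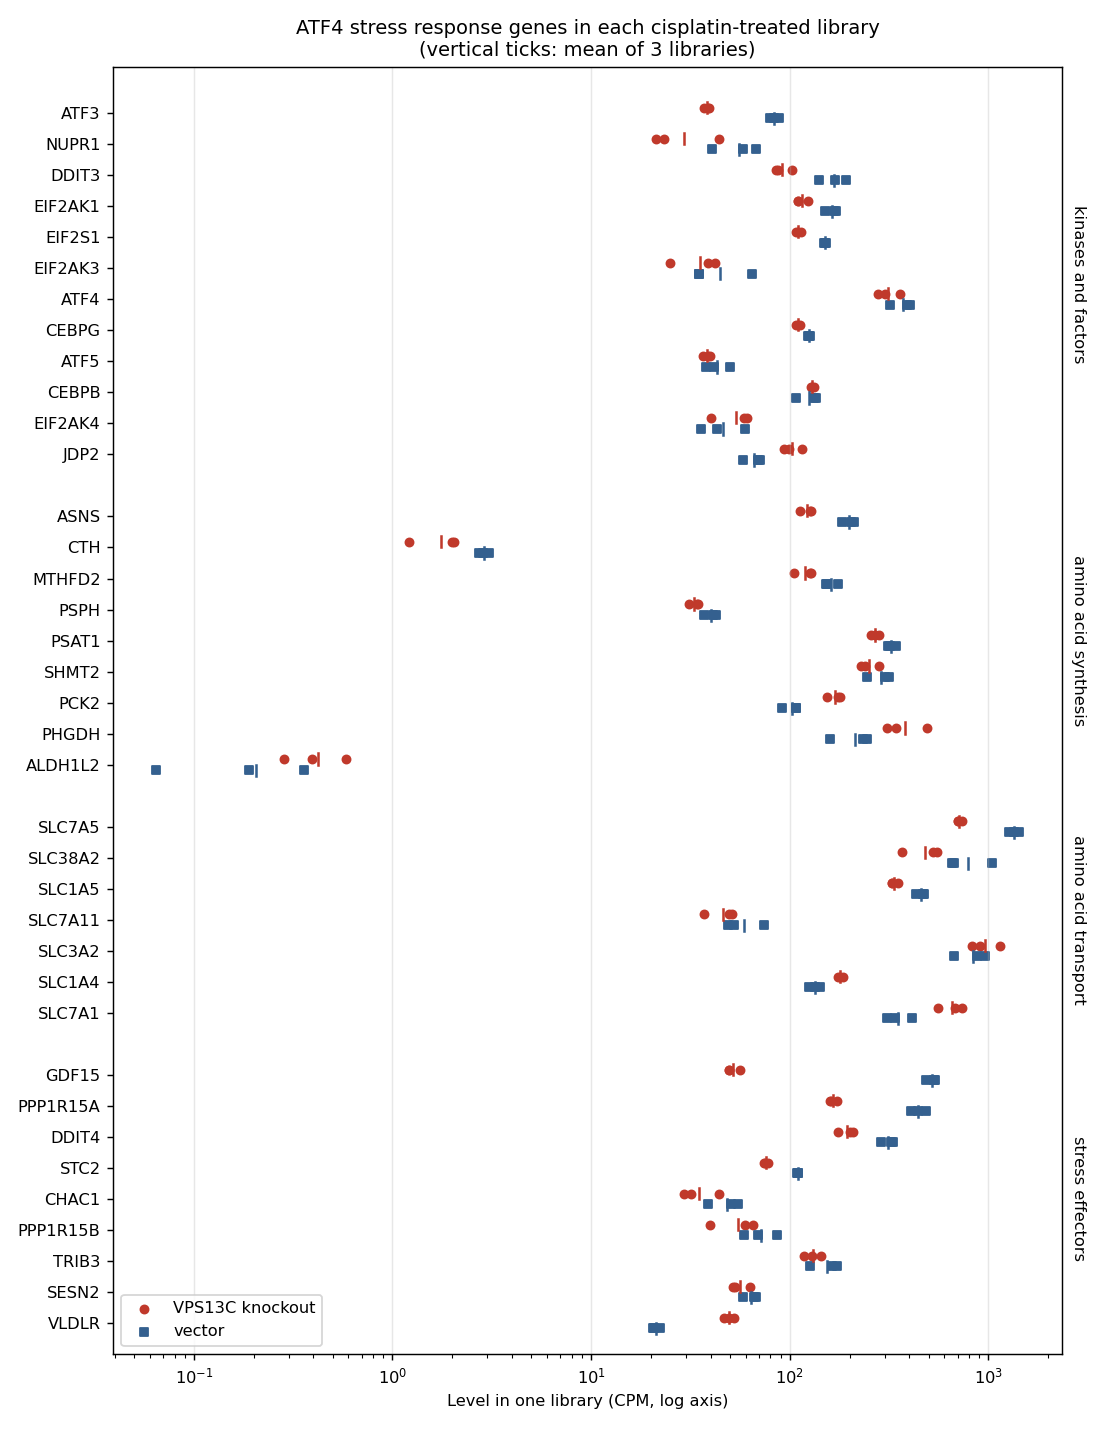
Level of each of the 37 members in every library, in CPM on a log axis, with VPS13C knockout libraries as red circles above vector libraries as blue squares and vertical ticks at the means of 3 libraries. GDF15, PPP1R15A, ATF3 and SLC7A5 have their 3 knockout libraries well below the 3 vector libraries, while VLDLR, SLC7A1, PHGDH and PCK2 have them above.

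Among the kinases, which sense different stresses and share eIF2 alpha as their target, HRI was the one whose RNA passed the threshold. EIF2AK1 (chromosome 7, 6022247 to 6059175), which encodes HRI, the kinase activated by heme shortage and mitochondrial stress, had 110.5, 124 and 109.8 CPM in the knockout libraries and 149.7, 171 and 167 CPM in the vector libraries. All knockout libraries lay below all vector libraries, and the gene fell (log2 fold change −0.50, standard error 0.10, edgeR adjusted p = 0.00774). Its 40 nearest genes with at least 8 CPM had a median log2 fold change of −0.40, close to its own value. Such medians are printed here for some members only. Over the called members without a printed median, it ran from −0.24 (SLC1A4, which rose) to 0.21 (STC2, which fell). The part of neighbouring genes in these changes was not tested. EIF2AK3, which encodes PERK, the kinase of the endoplasmic reticulum, had 42.0, 25.03 and 38.9 CPM in the knockout libraries and 64.6, 34.7 and 34.9 CPM in the vector libraries. Vector replicate 1 stood far above the other 2 vector libraries, the groups overlapped, and the log2 fold change was −0.34 (standard error 0.30, edgeR adjusted p = 0.417), or 0.02 without that library. EIF2AK4, which encodes GCN2, the sensor of uncharged tRNA, had 61.1, 40.2 and 59.2 CPM in the knockout libraries and 59.4, 35.8 and 42.8 CPM in the vector libraries and also overlapped (log2 fold change 0.22, standard error 0.23, edgeR adjusted p = 0.509). The RNA of the kinases' common substrate was lower: EIF2S1, the gene of eIF2 alpha (chromosome 14, 67360328 to 67386516), had 113, 107 and 110.0 CPM in the knockout libraries and 151, 152 and 149 CPM in the vector libraries. The libraries of each group lay within a narrow range of each other and the groups were well apart (log2 fold change −0.45, standard error 0.08, edgeR adjusted p = 0.00532).

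ATF4 mRNA was abundant, and its groups overlapped. ATF4 (chromosome 22, 39520559 to 39522686) had 277, 359 and 300.2 CPM in the knockout libraries and 321, 401 and 389 CPM in the vector libraries. Knockout replicate 2 lay between vector replicates 1 and 3, and the log2 fold change was −0.25 (standard error 0.14, edgeR adjusted p = 0.218). With the length trend removed the value was −0.23, edgeR adjusted p = 0.0146. The ATF4-induced factors DDIT3 and ATF3 both fell. DDIT3 (chromosome 12, 57516588 to 57520517), the gene of the pro-apoptotic factor CHOP, had 85.3, 103 and 87.5 CPM in the knockout libraries and 140.0, 192 and 168 CPM in the vector libraries. It fell in every knockout library relative to every vector library (log2 fold change −0.86, standard error 0.14, edgeR adjusted p = 0.00381). By FPKM, which is scaled for length and so allows genes to be compared, DDIT3 stood at 0.506 ± 0.0182 of the ATF4 level in the knockout and 0.776 ± 0.0488 in the vector libraries (SD, n = 3 each). DDIT3 overlaps MARS1, a tRNA synthetase gene, on the genome, and without strand information their reads may mix; MARS1 had a log2 fold change of −0.19.

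ATF3 (chromosome 1, 212565407 to 212620777), a stress-induced repressor of the same bZIP family, had 38.6, 36.9 and 39.1 CPM in the knockout libraries and 88.6, 83.0 and 79.8 CPM in the vector libraries. Its knockout libraries held less than any vector library, and it fell 2.19-fold (log2 fold change −1.13, standard error 0.10, edgeR adjusted p = 2.08e-04). JDP2 (chromosome 14, 75426943 to 75474107), a bZIP repressor of AP-1 sites closely related to ATF3, went the other way with 93.9, 115 and 99.4 CPM in the knockout libraries and 58.4, 71.0 and 69.5 CPM in the vector libraries. It rose 1.55-fold without overlap (log2 fold change 0.63, standard error 0.12, edgeR adjusted p = 0.00774). The ratio of ATF3 to JDP2 by FPKM was therefore 0.329, 0.256 and 0.315 in the knockout libraries and 1.21, 0.927 and 0.911 in the vector libraries. The C/EBP partners of ATF4 did not pass with the counts as deposited. CEBPG, a short C/EBP that pairs with ATF4, had 112, 108 and 109.9 CPM in the knockout libraries and 125, 127 and 124 CPM in the vector libraries, lower in every knockout library by a small amount (log2 fold change −0.19, edgeR adjusted p = 0.115; with the length trend removed −0.21, edgeR adjusted p = 0.0471). CEBPB overlapped between the groups (128 to 132 CPM in knockout and 107 to 135 CPM in vector libraries), and its log2 fold change of 0.06 was −0.04 without vector replicate 3. ATF5, another factor translated through upstream reading frames, had 36.7 to 39.7 CPM in the knockout and 37.97 to 49.8 CPM in the vector libraries (log2 fold change −0.17, edgeR adjusted p = 0.342).

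NUPR1, a small stress-induced chromatin protein, had 21.2, 43.8 and 23.3 CPM in the knockout libraries and 40.5, 67.9 and 58.3 CPM in the vector libraries. Knockout replicate 2 lay above vector replicate 1, so the groups overlapped, and the log2 fold change of −0.91 (standard error 0.31) missed the threshold (edgeR adjusted p = 0.0597). Without knockout replicate 2 the log2 fold change was −1.31 (edgeR adjusted p = 0.00486), and without vector replicate 1 it was −1.10 (edgeR adjusted p = 0.0237). Leaving out any other library gave −0.88 to −0.74 and did not pass (edgeR adjusted p = 0.144 to 0.182). With all libraries kept, NUPR1 passed with DESeq2 (adjusted p = 0.012), limma-voom (adjusted p = 0.0429) and library size as the only scaling (edgeR adjusted p = 0.0332). It also passed with limma on log2 FPKM and with a replicate block. RLE scaling, the length correction without a block and the other filters on low counts did not bring NUPR1 past the threshold. Its 40 nearest genes had a median of −0.35.

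**Figure D2:**
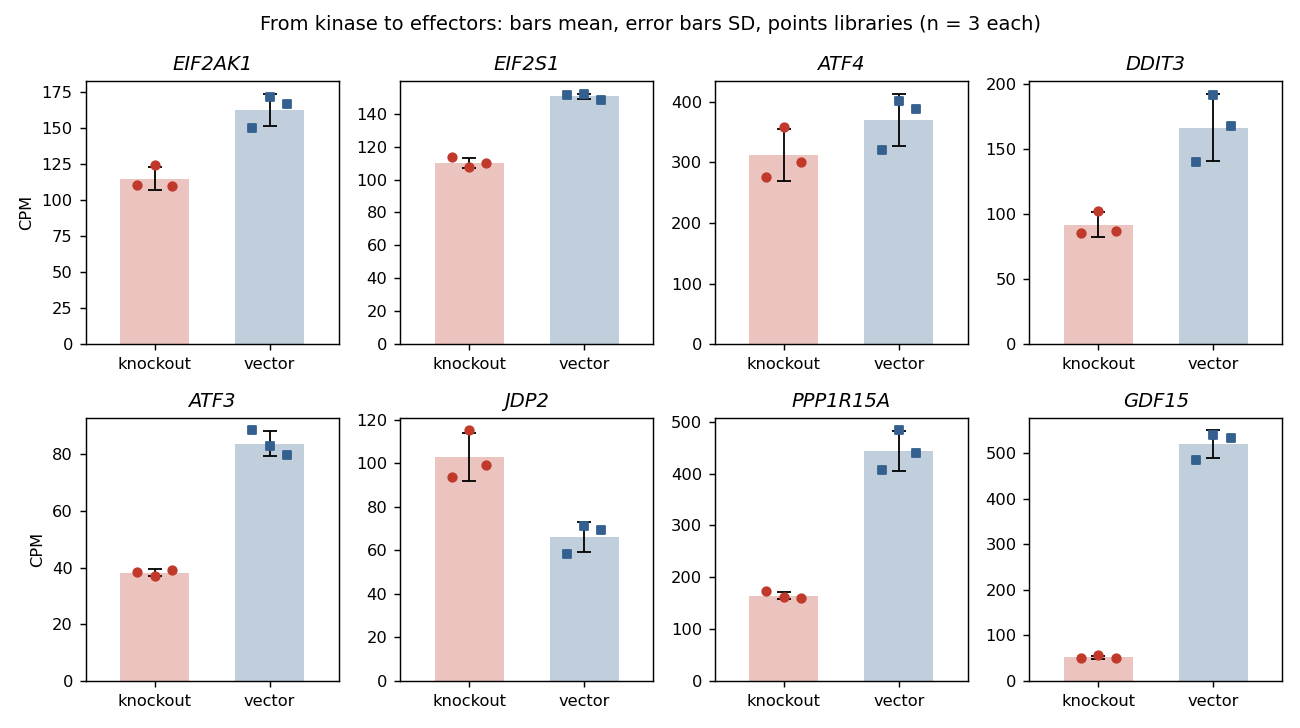
Levels along the pathway in CPM, with bars for the mean, error bars for the SD and points for the libraries (VPS13C knockout left, vector right, n = 3 each). EIF2AK1, EIF2S1, DDIT3, ATF3, PPP1R15A and GDF15 are lower in all knockout libraries, JDP2 is higher, and the libraries of ATF4 overlap.

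The genes of amino acid synthesis changed in both directions, and of the 3 serine enzymes only PHGDH passed the threshold. Serine is made from glycolytic 3-phosphoglycerate in 3 steps, by PHGDH, PSAT1 and PSPH. PHGDH (chromosome 1, 119711934 to 119744215), which makes the first and committed step, had 309, 491 and 344 CPM in the knockout libraries and 159, 246 and 233 CPM in the vector libraries. Replicate 2 was the highest of the knockout libraries, the groups did not overlap, and the gene rose 1.79-fold (log2 fold change 0.84, standard error 0.23, edgeR adjusted p = 0.0265). The rise missed the threshold without knockout replicate 3 (log2 fold change 0.90, edgeR adjusted p = 0.0608) and without vector replicate 3 (0.91, edgeR adjusted p = 0.0655). PSAT1, the transaminase of the next step, had 269, 256 and 282 CPM in the knockout libraries and 342, 313 and 320.3 CPM in the vector libraries, which was lower in every knockout library but not past the threshold (log2 fold change −0.27, edgeR adjusted p = 0.0576). PSPH, the phosphatase that releases serine, had 30.9 to 34.4 CPM in the knockout and 36.9 to 42.3 CPM in the vector libraries, again with no overlap (log2 fold change −0.27, edgeR adjusted p = 0.0829, or −0.34 and 0.0488 without vector replicate 1; with the length trend removed −0.26, edgeR adjusted p = 0.0268). Leaving out any other library did not bring PSPH past the threshold. By FPKM the ratio of PHGDH to PSAT1 was 1.39, 2.31 and 1.47 in the knockout libraries and 0.561, 0.944 and 0.875 in the vector libraries.

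Mitochondrial folate enzymes, which take one-carbon units from serine, were lower or did not pass. MTHFD2 (chromosome 2, 74198615 to 74217565), a dehydrogenase and cyclohydrolase, had 126, 105 and 128 CPM in the knockout libraries and 175, 152 and 154 CPM in the vector libraries and fell (log2 fold change −0.42, standard error 0.11, edgeR adjusted p = 0.0264). That call was lost when any library other than knockout replicate 2 was left out (edgeR adjusted p = 0.0548 and 0.0627 without knockout replicates 1 and 3, and 0.0512, 0.0515 and 0.0718 without vector replicates 1, 2 and 3). SHMT2, which splits serine into glycine and a one-carbon unit, overlapped between the groups (229 to 282 CPM in knockout and 245 to 316 CPM in vector libraries; log2 fold change −0.21, edgeR adjusted p = 0.287). ALDH1L2, a mitochondrial folate dehydrogenase, was below the filter on low counts, with 0.284 to 0.582 CPM in the knockout and 0.0648 to 0.359 CPM in the vector libraries, and was not tested.

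ASNS (chromosome 7, 97851677 to 97928441), asparagine synthetase and a classic ATF4 target, had 113, 127 and 128 CPM in the knockout libraries and 184, 211 and 203 CPM in the vector libraries. It fell 1.63-fold with no overlap (log2 fold change −0.70, standard error 0.10, edgeR adjusted p = 0.00188). PCK2 (chromosome 14, 24094171 to 24104125), the mitochondrial phosphoenolpyruvate carboxykinase, rose 1.66-fold, with 155, 179 and 175 CPM in the knockout libraries and 91.2, 107 and 108 CPM in the vector libraries (log2 fold change 0.73, standard error 0.11, edgeR adjusted p = 0.00237). It overlaps the gene NRL by position, and its 40 nearest genes had a median log2 fold change of 0.44. CTH, the last enzyme of cysteine synthesis from methionine, was scarce, at 1.21 to 2.04 CPM in the knockout and 2.73 to 3.05 CPM in the vector libraries. It fell at the very edge of the threshold (log2 fold change −0.67, standard error 0.22, edgeR adjusted p = 0.0499), and leaving out any one library lost the call (edgeR adjusted p from 0.0698 to 0.114).

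Transporters moved in both directions. SLC7A5 (chromosome 16, 87830023 to 87869507), which encodes LAT1, the exchanger of large neutral amino acids, was the most abundant member in CPM in the vector libraries, with 739, 703 and 704 CPM in the knockout libraries and 1271, 1352 and 1424 CPM in the vector libraries. It fell 1.89-fold (log2 fold change −0.92, standard error 0.11, edgeR adjusted p = 8.40e-04), and its 40 nearest genes had a median of −0.54. LAT1 works only when bound to the heavy chain CD98, the product of SLC3A2, which had 830.4, 1140.0 and 909 CPM in the knockout libraries and 673, 966 and 874 CPM in the vector libraries. The libraries of SLC3A2 overlapped (log2 fold change 0.20, standard error 0.18, edgeR adjusted p = 0.445). The FPKM ratio of SLC7A5 to SLC3A2 was 0.350, 0.252 and 0.310 in the knockout libraries and 0.752, 0.574 and 0.668 in the vector libraries, without overlap. SLC7A11, the cystine importer xCT and another partner of CD98, had 51.1, 37.2 and 49.4 CPM in the knockout libraries and 74.4, 48.9 and 52.7 CPM in the vector libraries, and the groups overlapped (log2 fold change −0.35, edgeR adjusted p = 0.213; with the length trend removed −0.45, edgeR adjusted p = 0.00524).

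SLC7A1 (chromosome 13, 29509414 to 29595688), the importer CAT1 for arginine and lysine, rose 1.87-fold. It had 737, 555 and 683 CPM in the knockout libraries and 412, 309 and 337 CPM in the vector libraries, and every knockout library lay above every vector library (log2 fold change 0.90, standard error 0.16, edgeR adjusted p = 0.00488). A pair of neutral amino acid carriers of one family moved apart. SLC1A5 (chromosome 19, 46774883 to 46788594), the glutamine carrier ASCT2, had 328, 349 and 329 CPM in the knockout libraries and 433, 466 and 472 CPM in the vector libraries and fell (log2 fold change −0.45, standard error 0.09, edgeR adjusted p = 0.00991). SLC1A4 (chromosome 2, 64988479 to 65023865), the carrier ASCT1 for serine, alanine and cysteine, had 175, 179 and 186 CPM in the knockout libraries and 125, 142 and 133 CPM in the vector libraries and rose (log2 fold change 0.43, standard error 0.09, edgeR adjusted p = 0.00972). The call of SLC1A5 was lost without vector replicate 3 (edgeR adjusted p = 0.056). That of SLC1A4 was lost without knockout replicate 3 or vector replicate 3 (edgeR adjusted p = 0.054 and 0.0524). SLC38A2, the carrier SNAT2, which is induced by amino acid shortage, had 551, 367 and 525 CPM in the knockout libraries and 1046, 673 and 654 CPM in the vector libraries. Its groups did not overlap, but vector replicate 1 lay far above the other vector libraries and the change just missed the threshold (log2 fold change −0.72, standard error 0.24, edgeR adjusted p = 0.0521; with the length trend removed −0.76, edgeR adjusted p = 0.00506).

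**Figure D3:**
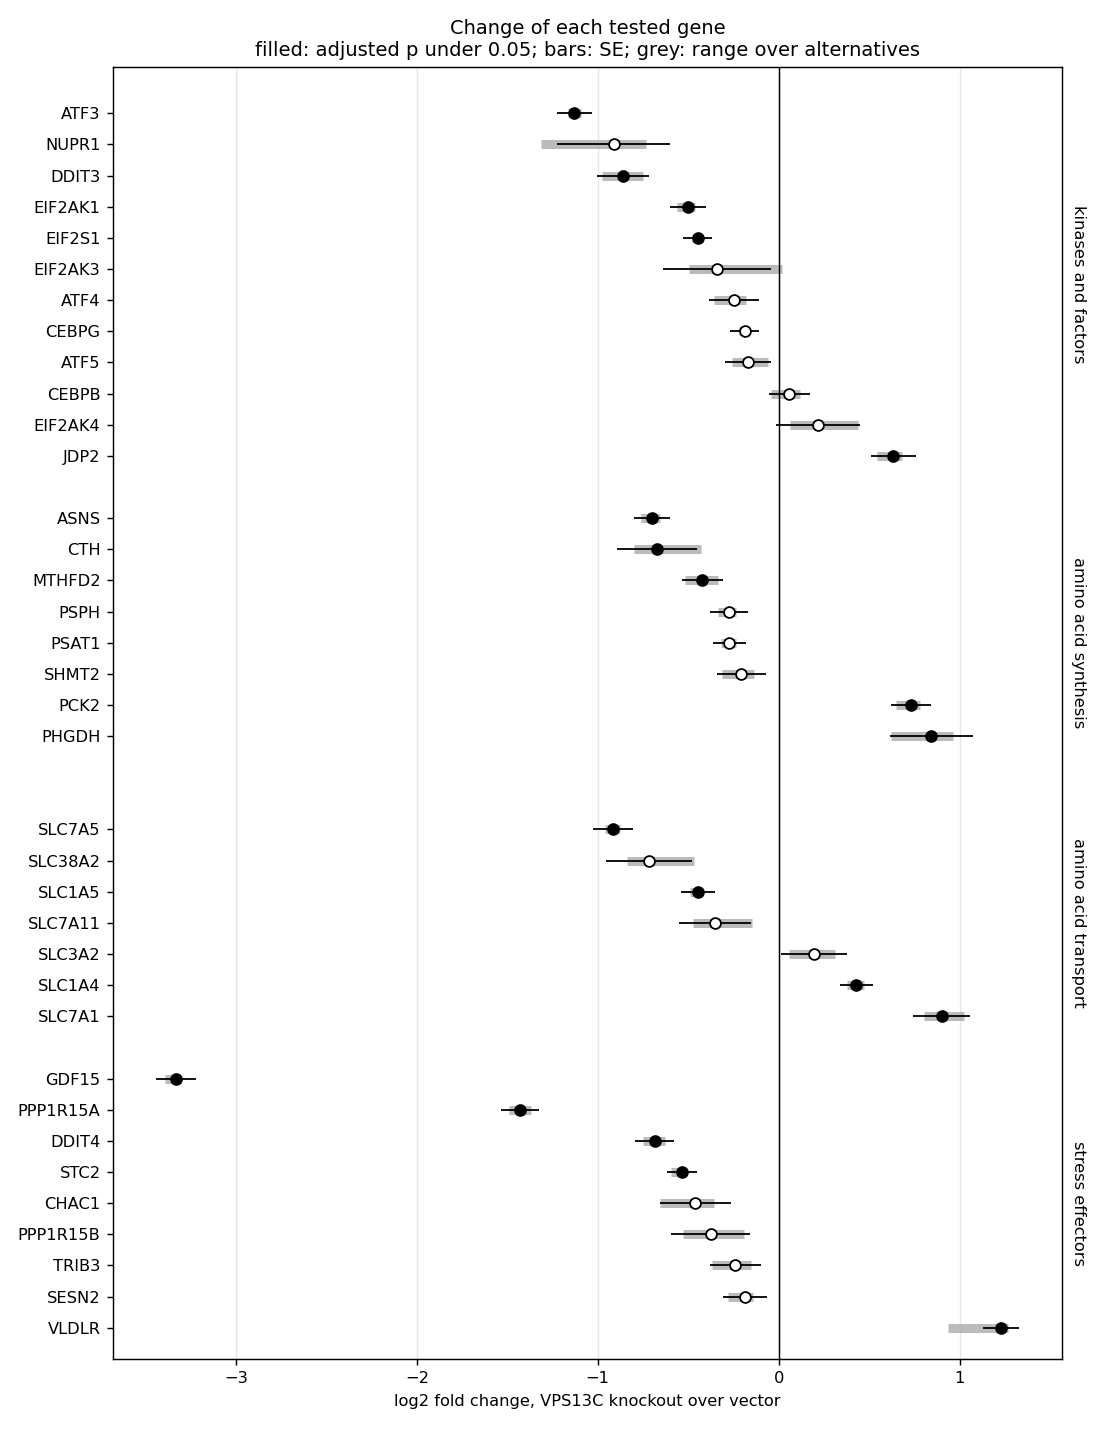
Log2 fold change of VPS13C knockout over vector for each of the 36 tested members, with SE bars, filled where the adjusted p was under 0.05, and the range over 17 alternative settings in grey. GDF15 lies farthest to the left at −3.33 and VLDLR farthest to the right at 1.23, and in each role group filled points lie on both sides of 0.

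The effectors held the widest changes. GDF15 (chromosome 19, 18386158 to 18389176), a secreted cytokine that acts on appetite and marks cell stress, had 49.6, 55.9 and 49.2 CPM in the knockout libraries and 484, 541 and 533 CPM in the vector libraries. The 2 groups were far apart in every library, and the knockout level fell to 0.0995 of that in vector (log2 fold change −3.33, standard error 0.11, edgeR adjusted p = 1.11e-05). By FPKM it ranked 1 of the 37 members in the vector libraries (554.8 ± 10.1) and 18 in the knockout libraries (53.6 ± 1.26, SD, n = 3 each). GDF15 is also a p53 target, and its 40 nearest genes had a median of −0.68. PPP1R15A (chromosome 19, 48872421 to 48876058), the gene of GADD34, had 173, 162 and 159 CPM in the knockout libraries and 408, 484 and 440.3 CPM in the vector libraries. It fell 2.69-fold, with the vector libraries far above (log2 fold change −1.43, standard error 0.10, edgeR adjusted p = 1.23e-04), while the median of its 40 nearest genes was 0.19. PPP1R15B, the constitutive counterpart of GADD34, had 65.4, 39.8 and 59.8 CPM in the knockout libraries and 86.4, 58.7 and 69.1 CPM in the vector libraries, and its groups overlapped (log2 fold change −0.38, standard error 0.22, edgeR adjusted p = 0.228; with the length trend removed −0.43, edgeR adjusted p = 0.037). The FPKM ratio of PPP1R15A to PPP1R15B was 6.22, 9.50 and 6.23 in the knockout libraries and 11.02, 19.3 and 14.9 in the vector libraries.

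DDIT4 (chromosome 10, 72273924 to 72276036), which encodes the mTORC1 inhibitor REDD1, had 176, 208 and 201 CPM in the knockout libraries and 287, 331 and 322 CPM in the vector libraries and fell 1.61-fold (log2 fold change −0.69, standard error 0.11, edgeR adjusted p = 0.00291). Its 40 nearest genes had a median of −0.43. SESN2, another mTORC1 inhibitor and a leucine sensor, overlapped between the groups (51.9 to 63.1 CPM in knockout and 57.9 to 67.9 CPM in vector libraries; log2 fold change −0.19, edgeR adjusted p = 0.275). STC2 (chromosome 5, 173314723 to 173328414), a secreted glycoprotein, had 77.5, 74.5 and 75.1 CPM in the knockout libraries and 111, 109.9 and 109 CPM in the vector libraries. Its libraries were tightly grouped and well apart, and it fell (log2 fold change −0.53, standard error 0.08, edgeR adjusted p = 0.00275). VLDLR (chromosome 9, 2621787 to 2660056), a lipoprotein receptor, was the one effector that rose, with 49.7, 46.9 and 52.4 CPM in the knockout libraries and 22.2, 20.5 and 20.7 CPM in the vector libraries (log2 fold change 1.23, standard error 0.10, edgeR adjusted p = 1.86e-04). Its fold of 2.34 was the largest rise among the members, and its 40 nearest genes had a median of 0.53.

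A pair of effectors often read as signs of ATF4 and CHOP activity did not pass. TRIB3, a pseudokinase that restrains AKT and ATF4, had 129, 144 and 118 CPM in the knockout libraries and 126, 173 and 163 CPM in the vector libraries, with vector replicate 1 among the knockout libraries (log2 fold change −0.24, edgeR adjusted p = 0.238). CHAC1, which degrades glutathione, had 29.2, 43.9 and 31.9 CPM in the knockout libraries and 39.0, 55.0 and 50.8 CPM in the vector libraries, with knockout replicate 2 among the vector libraries (log2 fold change −0.46, edgeR adjusted p = 0.111). Whether each passed depended on single libraries and on the model. Without vector replicate 1 the log2 fold change was −0.37 for TRIB3 (edgeR adjusted p = 0.0397) and −0.60 for CHAC1 (edgeR adjusted p = 0.0358), and without knockout replicate 2 that of CHAC1 was −0.65 (edgeR adjusted p = 0.0227). Leaving out any other library brought neither gene past the threshold. Over the 17 alternatives the log2 fold change ran from −0.37 to −0.15 for TRIB3 and from −0.65 to −0.36 for CHAC1. With the length trend removed that of CHAC1 was −0.44, edgeR adjusted p = 0.00789. With all libraries kept, CHAC1 also passed with limma on log2 FPKM. Both genes passed with a replicate block, with or without the length correction. Of called and at least 2-fold changes, the members held 3 falls, those of GDF15, PPP1R15A and ATF3, and 1 rise, that of VLDLR. Over all genes 5.52% fell and 6.73% rose by that rule.

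Levels among the members were ordered by FPKM. In the knockout libraries SLC3A2 stood first (562.3 ± 65.5), followed by ATF4 (256.4 ± 21.5) and PHGDH (231.7 ± 45.5), which did not differ beyond their spread, and then SLC7A5 (168.8 ± 9.06) and SLC1A5 (150.2 ± 9.91; SD, n = 3 each). In the vector libraries GDF15 and SLC3A2 (498.7 ± 72.8) came first, with means apart by less than the SD of SLC3A2, followed by SLC7A5 (327.1 ± 15.8) and ATF4 (310.8 ± 25.3), with means apart by less than the SD of ATF4. PHGDH ranked 3 in the knockout and 12 in the vector libraries, and PPP1R15A ranked 14 in the knockout and 7 in the vector libraries. ALDH1L2, CTH and VLDLR were at the bottom in vector, at ranks 37, 36 and 35.

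The transcript table held 156 RefSeq transcripts of the members, of which 100 were tested. In it 7 transcripts of the members fell and 1 rose, beside 1.08% and 1.17% of 40948 transcripts tested. For PPP1R15A, DDIT4, STC2 and EIF2S1 the falling transcript was the only one listed. Of ATF3 the main form NM_001674.4 fell, with 83.5% of the gene's counts in vector libraries and a log2 fold change of −1.15 (standard error 0.10, edgeR adjusted p = 0.00958), and of GDF15 NM_004864.4 fell by 3.35 on the log2 scale. For MTHFD2 the predicted form XM_006711924.2 fell by 0.56 on the log2 scale (edgeR adjusted p = 0.0329), while NM_006636.4, with a log2 fold change of −0.25, did not pass. VLDLR rose through NM_001018056.3, which averaged 43.2 CPM in the knockout and 14.0 CPM in the vector libraries (log2 fold change 1.62, standard error 0.13, edgeR adjusted p = 0.0094). That form made up 86.2% of the VLDLR counts in knockout and 65.7% in vector libraries, and NM_003383.5 made up 11.5% in knockout and 30.9% in vector libraries (log2 fold change −0.21, edgeR adjusted p = 0.976). A test of the balance between transcripts passed for 0 of 28 members (edgeR diffSpliceDGE; 0 also at an unadjusted p under 0.05), beside 0.243% of 9062 genes. The members' unadjusted diffSpliceDGE p-values ran from 0.320 for VLDLR to 0.998 for PSPH, most of them close to 1. Such crowding near 1 marks a cautious test, so these results do not show that the balance was unchanged. The split of short reads between transcripts is an estimate, and calls of the members' transcripts depended on each library, with 1 to 3 falls and 0 or 1 rise left when one library was left out. The matching share of all transcripts was not counted.

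Promoter letters were read for the 31 members with a window in the RefSeq table for GRCh38.p14, from 250 bases before to 50 after an annotated start. Of these, 12 members have more than 1 start and window listed, and the first listed window was used. The core of the C/EBP-ATF response element through which ATF4 acts, TGATGNAA on either strand, was found in 6 of these windows (19.4%), beside 1.72% of the windows of tested genes and 3.67% of all windows. The 6 were those of ATF3, ASNS, CHAC1, PPP1R15B, SLC3A2 and SLC7A1. In SLC3A2 and SLC7A1 the letters lay just after the start, and the stretches before the start are shown for the other 4, in the direction of transcription with the core in capitals. In CHAC1 the core reads on the opposite strand. The ASNS window belongs to a start at 97872408, inside the span given above, which reaches to a farther upstream start. The ATF3 window is 1 of 2 listed and lies at the upstream end of the span of that gene. Whether the ATF3 transcript NM_001674.4 starts there was not examined.
ATF3, chr1:212565191-212565248, plus strand, core 191 bases before the start: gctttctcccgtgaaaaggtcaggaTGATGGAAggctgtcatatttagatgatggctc
ASNS, chr7:97872444-97872501, minus strand, core 68 bases before the start: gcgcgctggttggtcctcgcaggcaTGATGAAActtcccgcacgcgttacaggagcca
CHAC1, chr15:40953237-40953294, plus strand, core 209 bases before the start: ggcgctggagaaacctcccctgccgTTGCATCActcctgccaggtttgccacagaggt
PPP1R15B, chr1:204412012-204412067, minus strand, core 227 bases before the start: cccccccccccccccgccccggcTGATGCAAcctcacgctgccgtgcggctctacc

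Of these 6 genes ATF3 and ASNS fell, SLC7A1 rose and CHAC1, PPP1R15B and SLC3A2 did not pass, so the letters did not go with one direction. With every listed window searched, an alternative chosen after seeing the data, 10 of the 31 members held the core (32.3%), beside 2.77% of tested genes. The 4 added were CEBPG, JDP2, SLC1A5 and SLC1A4, of which JDP2 and SLC1A4 rose and SLC1A5 fell. The letters of the cAMP response element, TGACGTCA, were found in 1 member window, that of PPP1R15A (3.23%, beside 3.16% of the first listed windows of tested genes), and the stretch is shown because this gene had the second largest fall.
PPP1R15A, chr19:48872338-48872395, plus strand, element 58 bases before the start: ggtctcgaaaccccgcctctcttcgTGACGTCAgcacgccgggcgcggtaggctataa
The ER stress element was searched on either strand and was found in 0 member windows and in 0.126% of the windows of tested genes. A match is a run of letters only, and where no match was found these letters are merely not in this window.

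Other genes of the pathway were listed by role, also with earlier results of these data known, so their shares are no independent evidence either. The shares are set beside the 17.8% of all genes that rose and the 17.4% that fell. Among 16 further parts of the eIF2 machinery 4 rose and 4 fell, or 25% each way, with a median log2 fold change of −0.15. DELE1, the mitochondrial messenger that activates HRI, rose to 87.2 ± 3.87 CPM in the knockout libraries, against 49.2 ± 1.14 CPM in vector (log2 fold change 0.82, standard error 0.09, edgeR adjusted p = 6.24e-04). EIF2B1, the regulatory alpha subunit of the exchange factor eIF2B, fell to 51.0 ± 2.10 CPM, against 74.8 ± 6.55 CPM in vector (log2 fold change −0.55, standard error 0.11, edgeR adjusted p = 0.00632). GCN1, which GCN2 needs for activation, fell to 85.2 ± 7.25 CPM, against 122.7 ± 8.14 CPM in vector (log2 fold change −0.53, standard error 0.10, edgeR adjusted p = 0.00764). EIF2S3, the gamma subunit of eIF2, rose to 601.0 ± 19.0 CPM, against 447.0 ± 20.6 CPM in vector (log2 fold change 0.43, standard error 0.10, edgeR adjusted p = 0.0134), the opposite direction to EIF2S1.

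Of 13 tRNA synthetase and tRNA export genes 0 rose and 5 fell, or 38.5% lower beside 17.4% of all genes (median −0.26). WARS1, AARS1, CARS1 and IARS1 had the smallest p, with log2 fold changes of −0.77, −0.58, −0.52 and −0.44. WARS1, which charges tryptophan and is also induced by interferon, averaged 259.3 ± 11.3 CPM in the knockout and 443.1 ± 23.5 CPM in the vector libraries (SD, n = 3 each). Of 13 further ATF4 targets tested, 1 rose and 5 fell, again 38.5% lower (median −0.27). MTHFD1L, a mitochondrial folate enzyme, fell to 13.6 ± 1.48 CPM in the knockout libraries, against 29.9 ± 2.57 CPM in vector (log2 fold change −1.13, standard error 0.13, edgeR adjusted p = 6.63e-04), and GPT2, an enzyme of alanine synthesis, fell as well (log2 fold change −0.90). PYCR1, the last enzyme of proline synthesis, fell to 31.7 ± 5.77 CPM, against 63.5 ± 7.70 CPM in vector. NIBAN1, a stress-induced protein, rose (log2 fold change 0.74, standard error 0.15, edgeR adjusted p = 0.00828). Of 12 targets of the other branches of the unfolded protein response, those of ATF6 and XBP1, 0 rose and 2 fell (median −0.06). The share that fell, 16.7%, was near that of all genes. The 2 were DNAJB11, with a log2 fold change of −0.75, and XBP1, with −0.47.

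**Figure D4:**
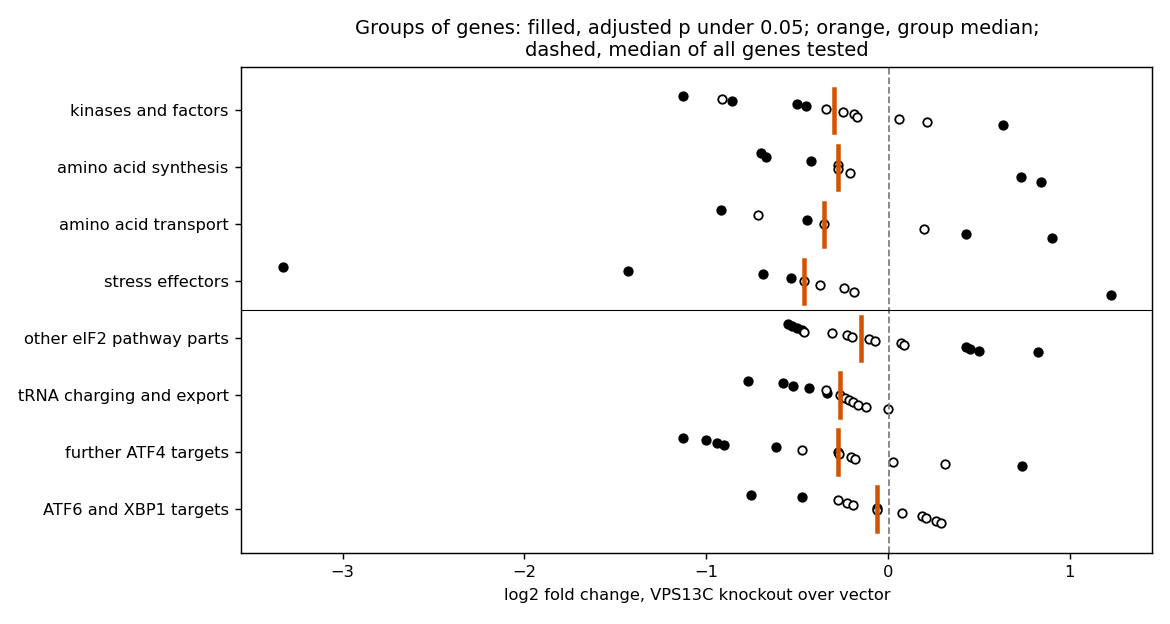
Log2 fold change of VPS13C knockout over vector for the 4 role groups of members (above the line) and for 4 other lists of the pathway, filled where the adjusted p was under 0.05, with the median of each group in orange and that of all genes tested dashed. The medians run from −0.46 for the stress effectors to −0.06 for ATF6 and XBP1 targets, and every filled point of the tRNA charging and export genes lies below 0.

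The reads behind some members are uncertain. For 9 members, among them ASNS, PHGDH, MTHFD2, PSPH and ATF4, the estimated counts held fractions, as they do where reads are split between similar sequences. By position 18 members overlap another annotated gene, among them EIF2AK1 with AIMP2, ATF5 with NUP62 and MTHFD2 with SLC4A5, and whether the counting used strand was not given in the sources used here. What part shared or overlapping reads had in these results was not tested.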

How the data were processed

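RNA-seq libraries of 50-base single-end reads had been sequenced on DNBSEQ, per the labels' protocols, and hg38 is the genome build named in the submitters' processing notes. The aligner, counter or strand setting was not given in the sources used here. Estimated counts were deposited by the authors per gene and transcript, and hold fractions where reads were shared, together with FPKM, TPM and a rescaled count signal. The deposited TPM, signal and group means were not used. The deposited FPKM served for levels compared between genes, for 2 alternatives and, against the counts, for the effective gene lengths of the length correction.

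Counts were rounded to whole numbers and tested with edgeR 4.0.16 (R 4.3.3) by the quasi-likelihood test, after filterByExpr with a minimum count of 10 and TMM scaling, with a prior count of 2 for fold changes and Benjamini-Hochberg adjustment over all genes tested. The fit used 3 VPS13C knockout and 3 vector libraries, without a replicate block. Library totals, 14774065 to 15799149 counts, set the precision of low genes such as CTH. CPM here is computed from these counts with TMM scaling. FPKM ratios are of single libraries. Transcript balance was tested with edgeR's diffSpliceDGE on transcript counts. Motifs were searched in RefSeq promoter windows of GRCh38.p14. Gene positions are those of RefSeq on GRCh38.p14. The scripts were tested on simulated counts. Alternatives used DESeq2 1.42.0 and limma 3.58.1, other scalings and filters, a gene length correction and each library left out.

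The members, the other pathway lists and the marker lists were chosen with earlier results of these data known. Every member was described: called members with at least 5 CPM in the higher group by each library, the rest by range or by each library where they help to read the pathway. Up to 4 called genes of each other list were named, those with the smallest p.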

Additional observations from a re-analysis of the deposited data

How the results depend on the processing

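Of the 19 called members, 14 kept their call under all 17 alternatives, 10 of them lower and 4 higher, and 14 members that were not called passed under some alternative. Kept and gained calls were not counted over all genes, so these counts cannot be read as particular to the members. Beside 13 lower members, 20 were lower with the length trend removed, 24 with a replicate block and 26 with both, and single libraries left out gave 10 to 15; members called higher numbered 4 to 7 throughout. The members' median of −0.35 was −0.39 with the length trend removed, −0.38 with that and the block, −0.38 with library size as the only scaling, −0.32 on log2(FPKM + 1), and −0.42 to −0.31 with one library left out. Genes called higher and lower numbered 3138 and 3253 with the length trend removed, 4049 and 3890 with the replicate block, 4128 and 4327 with the block and the length correction, and 1551 to 2552 and 1475 to 2491 with one library left out. The VPS13C log2 fold change passed with DESeq2 (−0.68), RLE scaling (−0.68), the length correction (−0.80, and −0.80 with the block), limma-voom (−0.67), no low-count filter (−0.67) and the replicate block (−0.67), and ran from −0.84 to −0.46 with one library left out. Of the member transcripts, 3 were lower without the low-count filter, 0 higher and 3 lower with the replicate block, and 0 to 1 higher and 1 to 3 lower with one library left out. Calls over all transcripts were not counted under these settings, so the loss cannot be read as particular to the members. The core letters of the C/EBP-ATF element were in 10 members with every listed promoter window, beside 6. The sign turned for CEBPB and EIF2AK3, neither called: with one library left out CEBPB ran from −0.042 (without vector replicate 3) to 0.12 and EIF2AK3 from −0.50 to 0.016 (without vector replicate 1). The cause of these shifts was not tested.

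The replicate numbers do not show a pairing that holds for every number: deviations of same-numbered libraries correlated at 0.839, 0.887 and −0.442 for numbers 1, 2 and 3, and knockout replicate 3 correlated best with vector replicate 1. The labels do not say whether same-numbered libraries share a day or culture, and the block results above are not read as stronger effects. Depth limits CTH and ALDH1L2 most, and with 3 libraries a group small changes were not detectable.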
